A study of Mus musculus with 12 samples.

Results

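The expression of 10 genes that mark myofibroblasts, vascular smooth muscle and pericytes, or that carry platelet-derived growth factor (PDGF) signals, was followed through a kidney RNA-seq table of 35275 genes. They were chosen by symbol: Acta2, Tagln, Myh11, Cnn1, Des, Vim, Pdgfra, Pdgfrb, Pdgfa and Pdgfb, each of which had 1 row. Poly(A) RNA was sequenced from kidneys of 12 C57BL/6J mice aged 6 months, 4 in each of 3 groups, and the labels list 2 females and 2 males in every group. WT mice were the controls, RC/RC mice were homozygous for a hypomorphic Pkd1 missense allele that gives slowly progressive cystic kidneys, and RC/RC:Casp1KO mice carried in addition a TALEN-made deletion in Casp1, the gene of the inflammasome protease Caspase-1. The samples analysed here include no Casp1 deletion on wild-type Pkd1, and the RC and Casp1 alleles were germline, present in all cells rather than in a chosen cell type. Between 18019819 and 24869454 reads per library were assigned to genes. Levels are given as CPM, counts divided by library size and scaled by the trimmed mean of M values (TMM), and mice are numbered 1 to 4 within a group only to name them.

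Myofibroblasts are matrix-producing cells that take on smooth muscle features, above all stress fibers built from alpha smooth muscle actin, the product of Acta2. Pericytes and mesangial cells are contractile support cells of capillaries and glomeruli, and resident fibroblasts, pericytes and mesangial cells all carry PDGF receptors. PDGF ligands act as dimers: PDGF-A chains bind the receptor encoded by Pdgfra, whereas PDGF-B chains can bind the products of both Pdgfra and Pdgfrb. In the kidney this pathway is known for recruiting mesangial cells during development and for driving fibroblast growth in scarring.

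Transcription of smooth muscle genes is classically driven by serum response factor (SRF) and its myocardin-family partners, which bind a motif named the CArG box, CC and GG around a run of A and T. RefSeq promoter windows (GRCm38.p6, 250 bases before to 50 bases after an annotated start) were at hand for 6 of the 10 genes (Acta2, Cnn1, Des, Vim, Pdgfra and Pdgfa), and were searched for this motif with at most 1 G or C within the run. The motif reads the same in form on both strands, and 9.98% of all 32851 windows held at least 1 match, 0.822% at least 2. Acta2 alone among these 6 genes had a match. Myl9, the regulatory myosin light chain of smooth muscle, also had 2. Of 12 other contractile genes with a window, 2 had a match, Myl9 and Pdlim3, which was not called. Tpm1, Tpm2, Cald1 and Csrp1, called lower in RC/RC:Casp1KO than in RC/RC kidneys, had none. The stretches of Acta2 and Myl9, also called lower there, are shown as the 2 windows of these genes with more than 1 match, and the matches are in capitals.
Acta2, chr19:34255388-34255467, minus strand: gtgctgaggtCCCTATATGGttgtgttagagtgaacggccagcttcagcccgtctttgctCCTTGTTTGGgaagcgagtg
Myl9, chr2:156775293-156775384, plus strand: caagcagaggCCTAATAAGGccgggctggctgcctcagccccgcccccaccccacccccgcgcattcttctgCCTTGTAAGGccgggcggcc
The Acta2 matches began 84 and 34 bases before the annotated start, and those of Myl9 161 and 99 bases before it. A match in these letters is a description of the sequence, and binding was not measured.

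The genotype was read first from Casp1 itself. Casp1 stood at 2.06, 1.29, 1.30 and 1.41 CPM in WT mice, at 3.37, 3.84, 4.26 and 2.62 in RC/RC mice and at 0.385, 0.664, 0.665 and 1.05 CPM in RC/RC:Casp1KO mice 1 to 4. The 3 groups did not overlap, and the RC/RC:Casp1KO libraries were the lowest, at a log2 fold change of -2.35 ± 0.32 against RC/RC (edgeR adjusted p = 0.00514). The count covers the whole gene and does not read the deletion. Pkd1, whose RC allele changes the protein, had a log2 fold change of 0.06 ± 0.20 (SE, n = 4 per group, edgeR adjusted p = 0.878) in RC/RC against WT.

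Libraries did not vary evenly, and RC/RC mouse 2 stood apart. Its 4 adipocyte markers summed to 869 CPM, against 71.8, 96.1 and 123 CPM in RC/RC mice 1, 3 and 4 and 40.1 to 85.2 CPM in the other groups. The most abundant of them was Fabp4, but Adipoq, an adipocyte hormone gene, reached 99.2 CPM there and at most 11.6 CPM elsewhere. The same library had the highest level of the 10 genes together, 1159 CPM against 500 to 714 CPM in the other RC/RC mice. WT mouse 3 had the highest summed urothelial markers, 35.1 CPM against 2.30 to 7.85 CPM in the other WT mice, together with the highest WT levels of Myh11 and Cnn1. Of the skeletal muscle markers, Acta1, Ckm and Myh4 stayed at or below 0.316 CPM in every library, whereas Myh1 reached up to 11.2 CPM. The part of tissue taken along with the kidney in any of these values was not tested, so the main results below are given with and without RC/RC mouse 2. In each group 2 libraries held mostly Xist and the other 2 mostly Ddx3y counts, as the labelled sexes would give, but the columns of the table carry no sex. That split was therefore used only to take libraries apart and as an added term in a repeat of the fits.

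**Figure D1:**
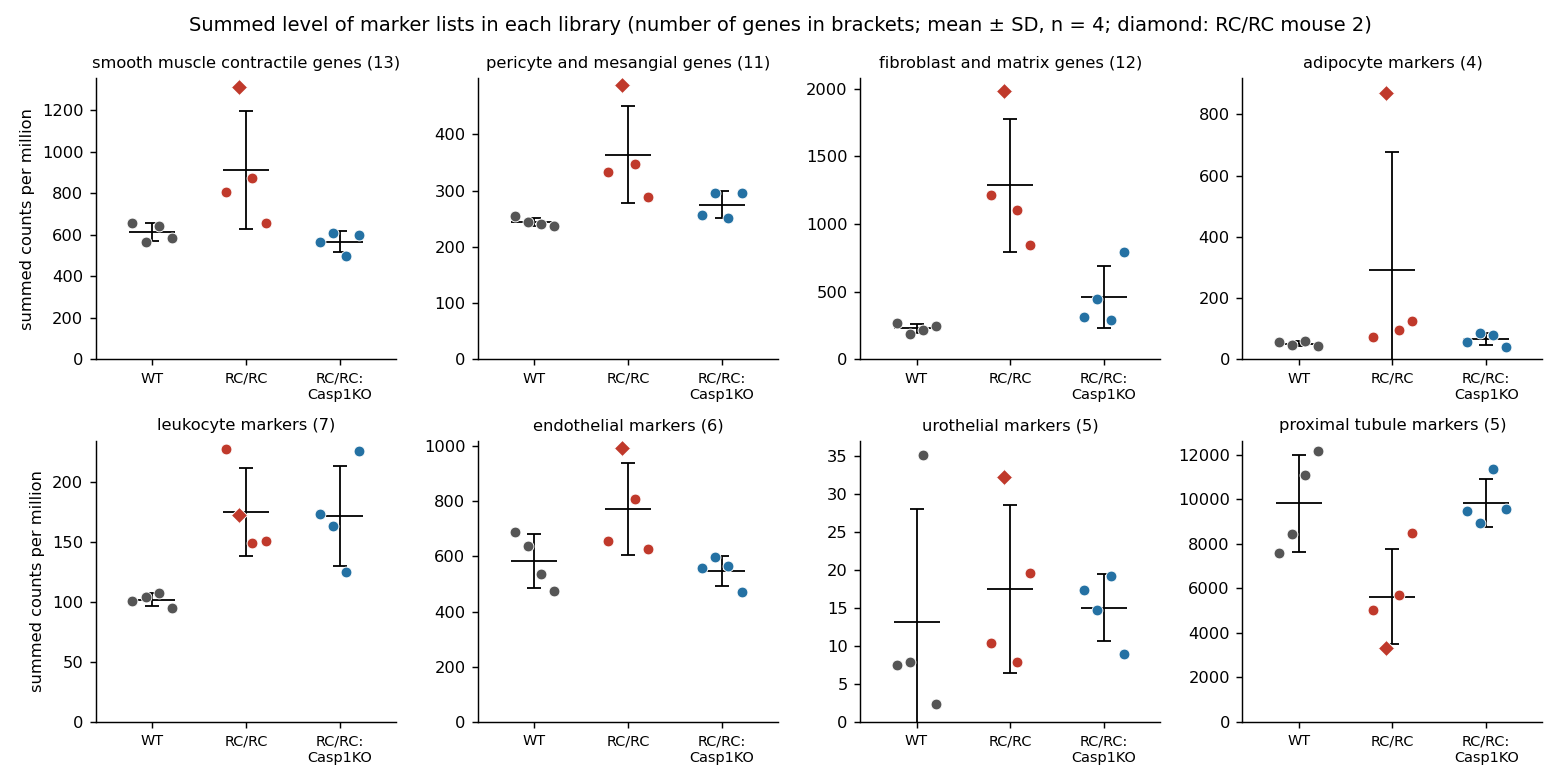
Summed TMM-scaled CPM (y axis) of 8 marker lists in each of the 12 libraries (points; x axis, group), with the mean ± SD (bar and whiskers, n = 4) and RC/RC mouse 2 as a diamond. That library was the highest of the RC/RC group for contractile, pericyte, matrix, adipocyte, endothelial and urothelial lists, reaching 869 CPM for the adipocyte list, and the lowest for the proximal tubule list.

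RC/RC kidneys held more RNA of most of these genes than WT kidneys. In edgeR's quasi-likelihood test 7 of the 10 genes rose (Acta2, Tagln, Vim, Pdgfra, Pdgfrb, Pdgfa and Pdgfb), by 1.76-fold for Pdgfa to 3.66-fold for Vim, and Des, Cnn1 and Myh11 did not pass. Among all 15243 genes tested 9.76% were called higher, and the median log2 fold change was 1.07 over the 10 genes and -0.02 over all genes. All 4 RC/RC mice lay above all 4 WT mice for 6 of the 10 genes, and for 12.7% of the genes tested. Without RC/RC mouse 2, the calls numbered 5, Pdgfra and Pdgfa being lost (adjusted p = 0.0544 and 0.134), and the median of the 10 genes was 0.74. Acta2, Pdgfra, Pdgfrb, Pdgfa and Pdgfb are also on a fibroblast list that the study drew from genes raised in these libraries, so their rise is no independent evidence. In libraries with more Xist and with more Ddx3y taken apart (2 against 2 mice, no test), the log2 ratio of group means was above 0 in both for 9 of the 10 genes, for example 1.49 and 1.04 for Acta2, and was 0.87 and -0.55 for Myh11. RC/RC mouse 2 is one of the libraries with more Xist, and without it their ratio was 0.60 for Acta2 and -0.30 for Myh11, the sign of the latter then being below 0 on both sides. Markers of other cells moved in the same comparison. Of 7 leukocyte markers 6 rose (median log2 fold change over the list, 1.68), and 6 were called without RC/RC mouse 2. Their summed level was 94.7 to 108 CPM in WT mice, 149 to 228 CPM in RC/RC mice and 125 to 227 CPM in RC/RC:Casp1KO mice, with Csf1r the most abundant. Over all 15243 genes tested 484 were called lower, and 266 without RC/RC mouse 2. Of 5 proximal tubule markers 2 fell (Slc5a2 and Cubn), with a median of -1.07, and 1 was called without RC/RC mouse 2. Of 5 podocyte markers Nphs1 fell (-0.62 ± 0.16, edgeR adjusted p = 0.0372; -0.79 without RC/RC mouse 2, 0.0140), a call lost in 6 of the 8 omissions of 1 mouse. The other 4 were not called, and the median over the list was -0.32 (-0.45 without RC/RC mouse 2). Of the 5 log2 fold changes 4 were below 0 and 1, that of Synpo, was above it (0.31). The adipocyte marker Fabp4, alone of its list in passing the filter on low counts, stood at 42.4 to 54.6 CPM in WT and 71.5 to 560 CPM in RC/RC mice, which did not overlap. Its log2 fold change was 2.08 ± 0.64 (edgeR adjusted p = 0.0619), and 0.78 ± 0.14 (0.0122) without RC/RC mouse 2. The part of these markers in the rise of the 10 genes was not tested. In whole kidney RNA, more cells of a type and more RNA per cell cannot be told apart.

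RC/RC:Casp1KO kidneys held less RNA of Acta2, Tagln, Des and Vim than RC/RC kidneys. These 4 of the 10 genes fell in edgeR's test, by 2.24-fold for Des to 3.32-fold for Tagln, and none of the 10 genes rose. Of 15428 genes tested, 4.41% were called lower, and the medians were -0.94 over the 10 genes (-0.59 without RC/RC mouse 2) and -0.03 over all genes. The RC/RC:Casp1KO mice all lay below the RC/RC mice for these 4 genes, and for 9.18% of the genes tested. The same 4 were called without RC/RC mouse 2, but only 2 of the 10 without RC/RC mouse 3 or RC/RC:Casp1KO mouse 1 or 3, and 1 without RC/RC:Casp1KO mouse 2. Of the proximal tubule markers 2 rose here (Lrp2 and Cubn), beside 1116 of 15428 genes called higher. Their median log2 fold change was 0.94 over the 5, and the leukocyte markers had a median of -0.57. The 6 endothelial markers had a median of -0.45, with Plvap called lower (-0.80 ± 0.22, edgeR adjusted p = 0.0446; 0.103 without RC/RC mouse 2). The 4 adipocyte markers had a median of -3.37, and of -0.63 without RC/RC mouse 2, and Fabp4 at 39.7 to 69.1 CPM lay below all RC/RC mice (-1.81 ± 0.65, edgeR adjusted p = 0.0932). The part of these markers in the result was not tested. The receptors and ligands had log2 fold changes of -0.56 to -0.73 in this comparison, with edgeR adjusted p between 0.0552 and 0.101. In libraries with more Xist and with more Ddx3y taken apart (2 against 2 mice, no test), the log2 ratio of group means of Acta2 was -1.91 and -1.35, that of Vim -1.69 and -0.95 and that of Pdgfrb -1.003 and -0.42. With RC/RC mouse 2 left out of the libraries with more Xist, these became -1.02 for Acta2, -1.12 for Vim and -0.74 for Pdgfrb. With the split as a term, Pdgfra and Pdgfb joined the calls (edgeR adjusted p = 0.0487 and 0.0424), and the count rose from 4 to 6. Calls in the whole table rose from 1797 to 2640 in the same fit. DESeq2 called 8 of the 10 and limma 3.

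Between RC/RC:Casp1KO and WT kidneys, edgeR called none of the 10 genes, against 2.03% of 15346 genes tested. At an unadjusted p below 0.05, 3 of the 10 were counted (Acta2, Vim and Pdgfb), against 21.8% of all genes, and DESeq2 also called 0. The values leaned both ways, Vim at 0.54 ± 0.20 and Pdgfb at 0.60 ± 0.18 above, Acta2 at -0.37 ± 0.13 below (log2 fold change ± SE). The plot of fold changes shows the 3 comparisons side by side. They share their groups, so that a high RC/RC value enters both of the first 2.

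**Figure D2:**
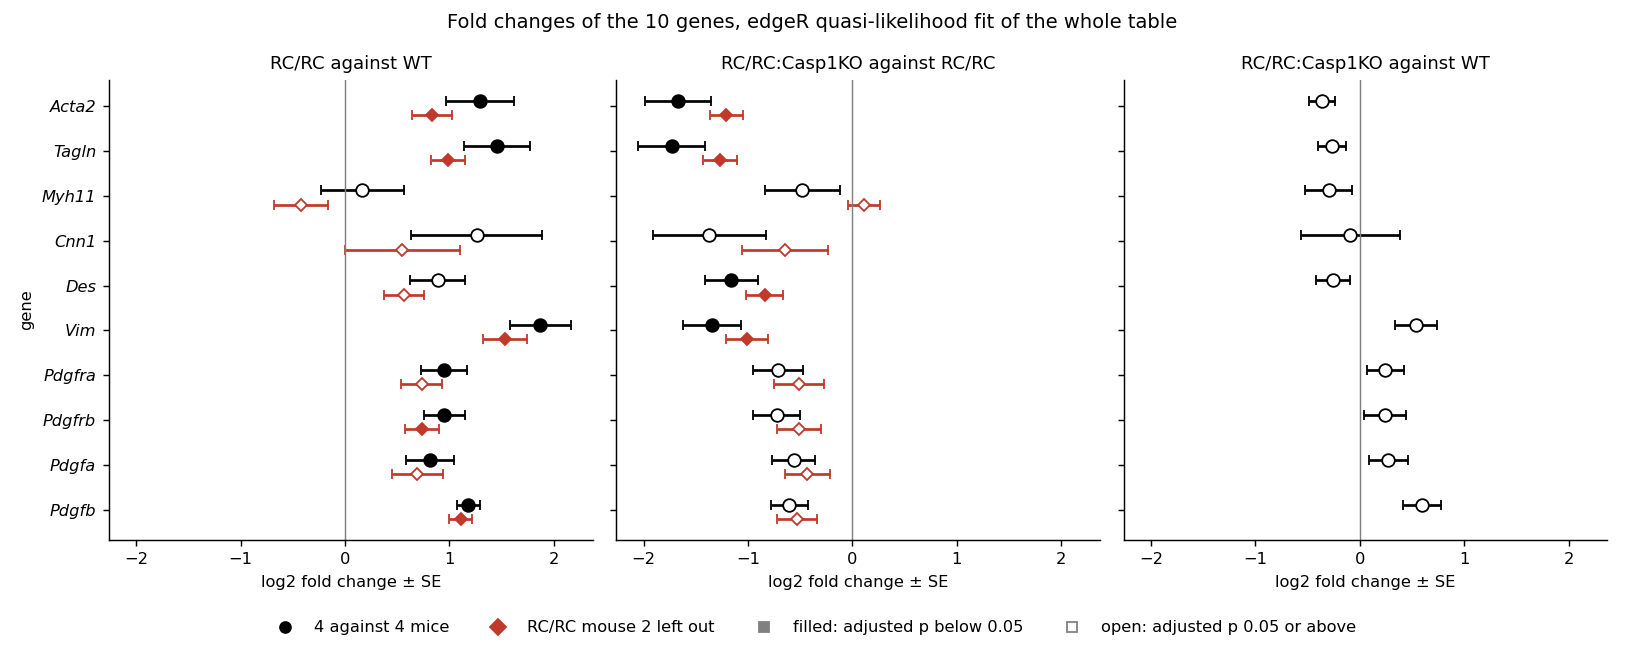
Log2 fold change ± SE (x axis) of the 10 genes (y axis) in the 3 comparisons, from edgeR's quasi-likelihood fit of the whole table, with all mice (black circles) and without RC/RC mouse 2 (red diamonds). Filled symbols passed an adjusted p of 0.05. Vim and Tagln passed in the first 2 comparisons with and without that mouse, Myh11 changed sign without it, and no gene passed between RC/RC:Casp1KO and WT.

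Smooth muscle actin and transgelin moved alike. Acta2 (chr19:34241090-34255336, minus strand, coordinates of the table on mm10) measured 49.8, 47.0, 51.2 and 34.6 CPM in WT mice, 73.2, 198, 107 and 68.8 in RC/RC mice and 38.9, 33.1, 35.8 and 33.2 CPM in RC/RC:Casp1KO mice 1 to 4. Every RC/RC mouse lay above every mouse of the other groups. The mean was 45.6 ± 7.58 CPM in WT mice, 112 ± 60.2 in RC/RC and 35.2 ± 2.76 in RC/RC:Casp1KO (SD, n = 4), so that the RC/RC mice were also the most scattered. The log2 fold change was 1.29 ± 0.32 (SE, edgeR adjusted p = 0.0302) against WT and 0.83 ± 0.19 (0.0325) without RC/RC mouse 2. From RC/RC to RC/RC:Casp1KO Acta2 fell by 1.67 on the log2 scale (SE 0.31, edgeR adjusted p = 0.0158), or by 1.21 without that mouse (0.0112). The call against WT was lost when any WT mouse or RC/RC mouse 3 was omitted, at adjusted p of 0.0519 to 0.0876 and log2 fold changes of 1.18 to 1.33, and the call against RC/RC when RC/RC:Casp1KO mouse 2 was omitted (-1.64, 0.0537). Actin genes share long stretches of coding sequence, and how reads that match several of them were counted is not given in the sources used here.

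Tagln (chr9:45929628-45936058), which encodes the actin-binding protein transgelin (SM22), measured 54.5, 39.7, 43.4 and 43.9 CPM in WT mice, 83.1, 222, 115 and 78.3 in RC/RC mice and 35.8, 36.4, 32.6 and 45.5 CPM in RC/RC:Casp1KO mice. Again all RC/RC mice lay above all others, with mouse 2 the highest. The log2 fold change was 1.45 ± 0.32 against WT (edgeR adjusted p = 0.0163) and -1.73 ± 0.32 from RC/RC to RC/RC:Casp1KO (0.0146). Both calls held whichever of the 8 mice was omitted, with 0.99 ± 0.17 (0.0101) and -1.26 ± 0.16 (0.0112) without RC/RC mouse 2.

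The later markers of contractile differentiation, Myh11 and Cnn1, were not called by edgeR with all mice. Myh11 (chr16:14194527-14291408), the smooth muscle myosin heavy chain, measured 28.0, 31.0, 57.4 and 35.1 CPM in WT mice, 23.9, 84.0, 30.6 and 32.4 in RC/RC mice and 25.8, 33.4, 35.1 and 28.6 CPM in RC/RC:Casp1KO mice. The 3 groups overlapped, and only RC/RC mouse 2 and WT mouse 3 lay above 35.1 CPM. The log2 fold change was 0.17 ± 0.40 against WT with all mice and -0.42 ± 0.26 without RC/RC mouse 2 (edgeR adjusted p = 0.810 and 0.382). Cnn1 (chr9:22099281-22109630), calponin, measured 1.77, 1.10, 4.94 and 1.78 CPM in WT mice, 1.74, 12.4, 5.13 and 3.91 in RC/RC mice and 1.39, 1.90, 2.99 and 2.73 CPM in RC/RC:Casp1KO mice. Its groups overlapped too, with a log2 fold change of 1.26 ± 0.63 against WT (edgeR adjusted p = 0.214). RC/RC mouse 2 again held the highest value, and without it the log2 fold change was 0.55 ± 0.55 (0.602). Over the 8 omissions of 1 mouse it ranged from 0.55 to 1.86 (edgeR adjusted p = 0.0915 to 0.602). From RC/RC to RC/RC:Casp1KO the log2 fold change of Cnn1 was -1.37 ± 0.54 (edgeR adjusted p = 0.1202), and DESeq2 called it (0.0449), as did edgeR without RC/RC mouse 1 (-1.69, 0.0353). It was -0.65 ± 0.41 (0.368) without RC/RC mouse 2. That of Myh11 was -0.48 ± 0.36 (0.390) with all mice and 0.11 ± 0.15 (0.694) without RC/RC mouse 2.

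**Figure D3:**
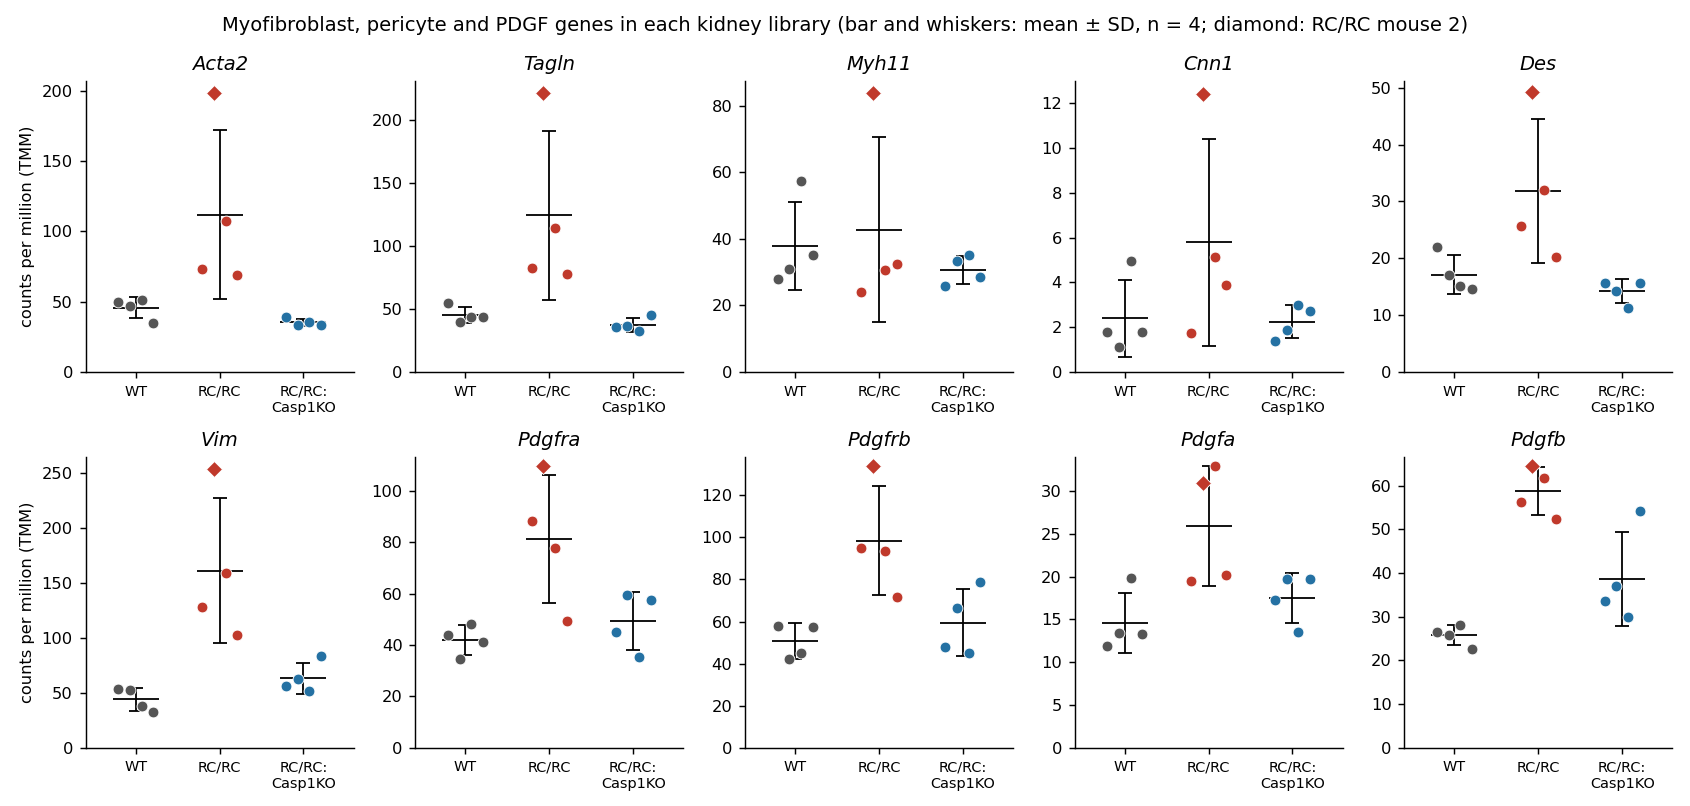
TMM-scaled CPM (y axis, from 0) of the 10 genes in each mouse (points; x axis, group), with the mean ± SD (n = 4) and RC/RC mouse 2 as a diamond. All 4 RC/RC mice lay above all WT mice for Acta2, Tagln, Vim, Pdgfra, Pdgfrb and Pdgfb, whereas the groups overlapped for Myh11 and Cnn1.

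Because Acta2 is present in myofibroblasts and in vessel walls while Myh11 is known chiefly from smooth muscle, their ratio was taken within each library. The log2 ratio of Acta2 to Myh11 counts was 0.83, 0.60, -0.16 and -0.02 in WT, 1.61, 1.24, 1.81 and 1.08 in RC/RC and 0.59, -0.01, 0.03 and 0.21 in RC/RC:Casp1KO mice 1 to 4. All 4 RC/RC mice exceeded all 8 others, and RC/RC mouse 2 sat within its group on this scale. The mean difference was 1.13 between RC/RC and WT and -1.23 between RC/RC:Casp1KO and RC/RC. Each had p = 0.0286 in a two-sided exact permutation test, the smallest p that 4 against 4 mice allow, and an adjusted p of 0.129 over the 9 ratio tests made, so neither passed the correction. Without RC/RC mouse 2 the differences were 1.19 and -1.30, with an exact permutation p of 0.0571, the smallest possible there.

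**Figure D4:**
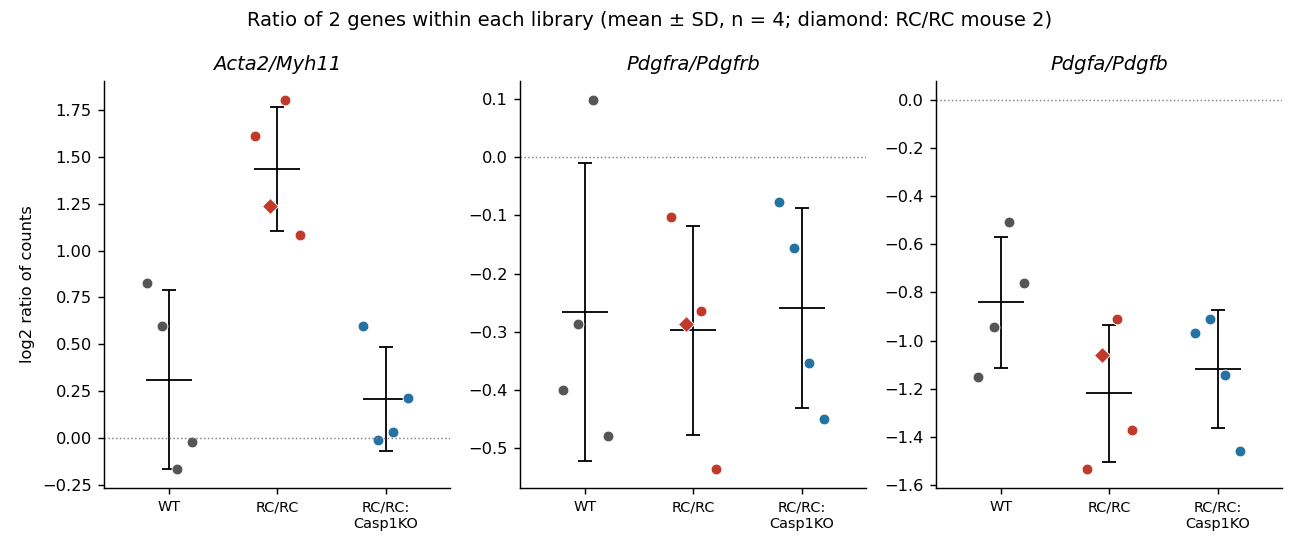
Log2 ratio of the counts of 2 genes (y axis) within each library (points; x axis, group) for Acta2/Myh11, Pdgfra/Pdgfrb and Pdgfa/Pdgfb, with the mean ± SD (n = 4) and RC/RC mouse 2 as a diamond. The RC/RC mice lie between 1.08 and 1.81 for Acta2/Myh11, above all other mice, and the groups overlap for the other 2 ratios.

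Of the intermediate filament genes, Vim was called in RC/RC against WT and Des was not, and both were called in RC/RC:Casp1KO against RC/RC. Vim (chr2:13573927-13582826), vimentin, the filament protein of mesenchymal cells and of injured tubule cells, measured 53.2, 52.8, 37.7 and 32.2 CPM in WT mice, 128, 254, 159 and 103 in RC/RC mice and 56.2, 62.1, 51.6 and 83.6 CPM in RC/RC:Casp1KO mice. Its RC/RC mice lay above both other groups, and those 2 groups overlapped. The log2 fold change was 1.87 ± 0.29 against WT (edgeR adjusted p = 0.00369), the largest of the 10 genes, and -1.35 ± 0.28 from RC/RC to RC/RC:Casp1KO (0.0203). The latter call was lost without RC/RC mouse 3 or RC/RC:Casp1KO mouse 1, 2 or 3, at -1.26 to -1.35 and adjusted p of 0.0539 to 0.0631. Both Vim calls held without RC/RC mouse 2, at 1.53 ± 0.21 (edgeR adjusted p = 0.00422) and -1.01 ± 0.20 (0.0305). Des (chr1:75360329-75368579), desmin, the filament protein of muscle, pericytes and mesangial cells, measured 22.0, 17.0, 15.1 and 14.5 CPM in WT mice, 25.7, 49.3, 32.0 and 20.3 in RC/RC mice and 15.7, 14.3, 11.2 and 15.7 CPM in RC/RC:Casp1KO mice. RC/RC mouse 4 lay below WT mouse 1, and the log2 fold change of 0.89 ± 0.26 missed the threshold (edgeR adjusted p = 0.0550), and was 0.57 ± 0.19 (0.123) without RC/RC mouse 2. Des was called there with the Xist and Ddx3y split as a term (0.0231) and by 4 of 7 other settings, DESeq2 among them (0.0148). The fit with the split called 2784 genes in the whole table, against 1971 without it. The RC/RC:Casp1KO levels did not reach the RC/RC range, and the log2 fold change of -1.16 ± 0.25 passed (edgeR adjusted p = 0.0249). The call was lost without RC/RC mouse 3 or RC/RC:Casp1KO mouse 1, 2 or 3 (adjusted p = 0.0595 to 0.0707, log2 fold change -1.07 to -1.21) and in limma (0.0608). The call held without RC/RC mouse 2, at -0.84 ± 0.18 (0.0399). Of 5 other filament-related genes, Sync (syncoilin, a desmin partner) at 2.04 ± 0.43 and Lmna (lamin A) at 0.60 ± 0.13 rose in RC/RC against WT. Beside these 2 of 5, 9.76% of all genes were called higher. Lmna fell again by 0.59 (SE 0.13) on the log2 scale in RC/RC:Casp1KO, 1 of 5 beside 4.41% of all genes called lower. The cytolinker gene Plec and Nes (nestin), the most abundant of the rest, were not called. Without RC/RC mouse 2 Sync was still called, but Lmna was not in either comparison (edgeR adjusted p = 0.0606 and 0.0577). Sync rested on few reads, 8, 4, 14 and 5 in WT mice and 51, 36, 25 and 25 in RC/RC mice.

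The PDGF receptor genes had fold changes of like size. Pdgfra (chr5:75152291-75198204), a marker of resident fibroblasts, measured 44.0, 34.4, 48.1 and 41.4 CPM in WT mice, 88.5, 110, 77.7 and 49.4 in RC/RC mice and 45.2, 59.6, 35.2 and 57.6 CPM in RC/RC:Casp1KO mice. RC/RC mouse 4 was only just above the highest WT mouse, and RC/RC and RC/RC:Casp1KO mice overlapped. Pdgfrb (chromosome 18, 61045150 to 61085061), carried by pericytes, mesangial cells and fibroblasts, measured 58.1, 41.98, 44.9 and 57.6 CPM in WT mice, 95.0, 134, 93.3 and 71.6 in RC/RC mice and 47.7, 66.5, 44.9 and 78.7 CPM in RC/RC:Casp1KO mice. Its RC/RC mice lay above all WT mice, and RC/RC:Casp1KO mouse 4 lay within the RC/RC range. Both genes had the same log2 fold change against WT, 0.95, with SE 0.22 for Pdgfra (edgeR adjusted p = 0.0221) and 0.20 for Pdgfrb (0.0132). The Pdgfra call was lost without WT mouse 2 or 4 or RC/RC mouse 1 or 2 (0.74 to 0.94, adjusted p = 0.0513 to 0.0617), and that of Pdgfrb held whichever mouse was omitted, at 0.74 ± 0.16 (0.0256) without RC/RC mouse 2. The log2 ratio of Pdgfra to Pdgfrb averaged -0.27 ± 0.26 in WT, -0.30 ± 0.18 in RC/RC and -0.26 ± 0.17 in RC/RC:Casp1KO (SD, n = 4), differences of at most 0.04 between group means, all smaller than the spread within a group (smallest exact permutation p = 0.771).

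Of the ligands, Pdgfb gave the most uniform rise. Pdgfb (chr15:79995900-80014808), whose product is made largely by endothelial cells to hold pericytes, measured 26.4, 25.9, 28.2 and 22.6 CPM in WT mice, 56.3, 64.5, 61.8 and 52.4 in RC/RC mice and 33.7, 37.0, 29.9 and 54.2 CPM in RC/RC:Casp1KO mice. All RC/RC mice and all RC/RC:Casp1KO mice lay above all WT mice, and RC/RC mouse 2 did not stand apart. The log2 fold change against WT was 1.18 ± 0.11 (edgeR adjusted p = 0.000369), 1.11 ± 0.11 without that mouse, and passed whichever mouse was omitted. Pdgfa (chr5:138976014-138997370), an epithelial and mesenchymal ligand, measured 11.9, 13.5, 19.8 and 13.3 CPM in WT mice, 19.4, 31.0, 32.9 and 20.2 in RC/RC mice and 17.2, 19.7, 13.5 and 19.7 CPM in RC/RC:Casp1KO mice. RC/RC mouse 1 lay below WT mouse 3, and the log2 fold change of 0.82 ± 0.23 passed narrowly (edgeR adjusted p = 0.0453). It was lost without WT mouse 1, 2 or 4 or RC/RC mouse 2 or 3 (0.68 to 0.77, adjusted p = 0.0941 to 0.134). The Pdgfa to Pdgfb log2 ratio had group means of -0.84, -1.22 and -1.12 in WT, RC/RC and RC/RC:Casp1KO, and none of its 3 differences passed (smallest exact permutation p = 0.143).

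Of 22 other PDGF pathway genes, 3 rose and none fell in RC/RC against WT, a share near the 9.76% of all genes called higher, and the median log2 fold change was -0.02. Pdgfrl, which encodes a secreted receptor-like protein, measured 0.191, 0.479, 0.250 and 0.141 CPM in WT mice, 2.79, 4.52, 2.59 and 1.68 in RC/RC mice and 0.462, 0.474, 0.498 and 1.64 CPM in RC/RC:Casp1KO mice. It rose by 3.41 ± 0.45 on the log2 scale (edgeR adjusted p = 0.00196) and fell by 1.90 (SE 0.49, 0.0386) in RC/RC:Casp1KO, where mouse 4 came close to the lowest RC/RC mouse. The other 2 that rose were Sphk1, a sphingosine kinase (0.76 ± 0.20), and Pik3r1, a phosphoinositide 3-kinase regulatory subunit (0.52 ± 0.15). From RC/RC to RC/RC:Casp1KO the adaptor gene Grb2 fell by 0.40 (SE 0.09) and the kinase gene Src by 0.33 (SE 0.09) on the log2 scale, which with Pdgfrl made 3 of 22 beside 4.41% of all genes called lower. Without RC/RC mouse 2 the list had 1 call against WT, Pdgfrl, and none against RC/RC:Casp1KO. Of the 8 omissions of 1 mouse, 7 ended the call of Sphk1, 6 that of Pik3r1, 7 that of Src, 4 that of Grb2 and 5 the fall of Pdgfrl, whereas its rise held in all 8. The ligand genes Pdgfc and Pdgfd had log2 fold changes of -0.27 ± 0.14 and -0.13 ± 0.12 in RC/RC against WT (edgeR adjusted p = 0.236 and 0.483). Furin, a protease that matures PDGF chains and the most abundant of the list, stood at -0.26 ± 0.14 (0.246).

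Of 13 other contractile genes, 12 had log2 fold changes above 0 in RC/RC against WT and 2 were called. Tpm1 (tropomyosin 1, 1.15 ± 0.20) and Cald1 (caldesmon, 0.75 ± 0.20) rose, beside 9.76% of all genes called higher. Tpm2 (1.09 ± 0.32, edgeR adjusted p = 0.0558) and Csrp1 (0.81 ± 0.24, 0.0518) did not pass. With the Xist and Ddx3y split as a term both were called (0.0411 and 0.0126), in a fit that called 2784 genes against 1971. Neither was called without RC/RC mouse 2 (0.0832 and 0.144). The median over the list was 0.75, and 0.39 without RC/RC mouse 2. The call of Tpm1 held whichever mouse was omitted, and that of Cald1 was lost without RC/RC mouse 1, 2 or 3 or WT mouse 2, 3 or 4 (adjusted p = 0.0627 to 0.113), at 0.53 without RC/RC mouse 2. Mylk, the myosin light chain kinase gene and the most abundant, stood at -0.23 ± 0.22. From RC/RC to RC/RC:Casp1KO 5 of the 13 fell, beside 4.41% of all genes called lower, among them Tpm2 by 1.20, Csrp1 by 1.08 and Myl9 by 1.07 on the log2 scale (SE 0.31, 0.20 and 0.30). Without RC/RC mouse 2, Tpm2 and Csrp1 were the 2 of these 5 that still passed, and Myl9 did not (adjusted p = 0.0693). The Csrp1 call held whichever mouse was omitted, whereas that of Tpm2 was lost without RC/RC mouse 3 or any RC/RC:Casp1KO mouse (adjusted p = 0.0795 to 0.0992). With the Xist and Ddx3y split as a term Ppp1r14a was also called lower (-1.14, edgeR adjusted p = 0.0387, and 0.0588 without the term). Lmod1 was then called lower in RC/RC:Casp1KO than in WT (-0.75, 0.0212, and 0.0562 without the term). There the term raised the calls in the whole table from 311 to 1257. None of the 4 SRF and myocardin-family genes was called by edgeR with all mice in any of the 3 comparisons. At an unadjusted p below 0.05, 1, 2 and 1 of them were counted in turn. Over all genes these counts were 4457 of 15243, 4889 of 15428 and 3343 of 15346 tested. DESeq2 called Mrtfb, a myocardin-family gene, in RC/RC:Casp1KO against RC/RC (adjusted p = 0.0367), where edgeR gave 0.49 ± 0.16 (0.0686), and edgeR with the Xist and Ddx3y split called it against WT (0.0433). Mrtfa had an edgeR adjusted p of 0.0490 against RC/RC without RC/RC:Casp1KO mouse 1 and of 0.0844 with all mice. Srf itself had 0.19 ± 0.12 in RC/RC against WT (edgeR adjusted p = 0.311).

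All 11 pericyte and mesangial genes had log2 fold changes above 0 in RC/RC against WT, with a median of 0.65 (0.41 without RC/RC mouse 2), and 3 were called, where 9.76% of all genes were called higher. Gucy1a1 (0.95 ± 0.18) and Gucy1b1 (0.65 ± 0.18), the subunits of soluble guanylate cyclase, and the adhesion molecule gene Mcam (0.80 ± 0.13) rose in RC/RC against WT. The calls of Gucy1a1 and Mcam held whichever mouse was omitted, but that of Gucy1b1 held only without RC/RC mouse 4, and was 0.47 (adjusted p = 0.127) without RC/RC mouse 2. Rgs5, a G protein regulator and the most abundant, measured 0.56 ± 0.25 (edgeR adjusted p = 0.163). From RC/RC to RC/RC:Casp1KO 4 of the 11 fell, Ndufa4l2, Rgs5, Mcam and Gucy1b1, where 4.41% of all genes were called lower, and Cspg4 (NG2 proteoglycan) rose. That rise was 1 of 11, a share near that of all genes called higher (1116 of 15428). Cspg4 measured 17.5, 19.4, 24.1 and 26.7 CPM in WT mice, 23.4, 26.3, 21.5 and 22.5 in RC/RC mice and 30.3, 36.0, 30.0 and 34.2 CPM in RC/RC:Casp1KO mice, all 4 of which lay above the rest. Its log2 fold change against RC/RC was 0.48 ± 0.11 (edgeR adjusted p = 0.0281), opposite in direction to Acta2 and Des, and 0.56 ± 0.11 (0.0305) without RC/RC mouse 2. The call was lost without RC/RC mouse 3 or RC/RC:Casp1KO mouse 1, 2 or 4 (0.42 to 0.51, adjusted p = 0.0529 to 0.0894), by library size alone and in limma (0.0772). The falls of the other 4 were not called without that mouse.

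Most matrix genes rose in RC/RC kidneys. Of 11 fibroblast and matrix genes tested in RC/RC against WT 10 rose, beside 9.76% of all genes called higher, led by Col1a1 at 3.00 ± 0.34, Col3a1 at 2.93 ± 0.33, Thy1 at 2.72 ± 0.38 and Dcn at 2.47 ± 0.24 on the log2 scale. From RC/RC to RC/RC:Casp1KO 7 of 12 fell, beside 4.41% of all genes called lower, but only Dcn was called without RC/RC mouse 2. Dcn, the small proteoglycan decorin, was also higher in RC/RC:Casp1KO than in WT, by 1.02 ± 0.13 (edgeR adjusted p = 0.00799), a comparison in which none of the 10 genes passed. In RC/RC:Casp1KO mouse 4, Col1a1 reached 127 CPM against 34.0 to 52.5 CPM in the other 3, whereas Acta2 was 33.2 CPM, within their range. Tagln (45.5 CPM), Vim (83.6), Pdgfrb (78.7) and Pdgfb (54.2) were, like Col1a1, highest of the group in that mouse. Des (15.68 against 15.66 CPM in mouse 1) and Pdgfa (19.72 against 19.68 in mouse 2) were highest there by little. Myh11, Cnn1 and Pdgfra, like Acta2, were not highest there. The summed leukocyte markers of that mouse were 227 CPM, against 125 to 174 CPM in the other 3.

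Levels per length of transcript ordered the genes. FPKM here is the TMM-scaled CPM divided by the table's gene length in kilobases. In WT the means ran from Tagln (28.6 FPKM), Acta2 (25.6) and Vim (20.05), through Pdgfrb (9.34), Pdgfb (8.83), Pdgfa (7.09), Pdgfra (6.39), Myh11 (5.71) and Des (5.66), to Cnn1 (1.01). The ranges over mice of each neighbouring pair overlapped, apart from the steps from Vim to Pdgfrb and from Des to Cnn1. In RC/RC the order was Tagln (78.5 FPKM), Vim (73.4), Acta2 (62.8), Pdgfb (20.1), Pdgfrb (18.1), Pdgfa (12.6), Pdgfra (12.4), Des (10.5), Myh11 (6.44) and Cnn1 (2.45). Vim (59.3 FPKM) and Tagln (58.0) changed places when RC/RC mouse 2 was left out. The RC/RC ranges of each neighbouring pair overlapped, apart from the step from Acta2 to Pdgfb. In RC/RC:Casp1KO Vim led at 28.9 FPKM, before Tagln at 23.7 and Acta2 at 19.8, and these neighbours overlapped too.

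Mice of the same group also differed in a graded way. After group means were subtracted, Acta2 and Tagln had a Pearson r of 0.86 over the 12 mice, Tagln and Des 0.91, Myh11 and Cnn1 0.89 and Pdgfra and Pdgfrb 0.83. These values share libraries and rest in part on RC/RC mouse 2. Without it Acta2 and Tagln had 0.46 and Acta2 and Myh11 0.12, while Tagln and Des (0.81), Myh11 and Cnn1 (0.84), Des and Vim (0.81) and Pdgfra and Pdgfrb (0.77) stayed close. Myh11 and Des then had -0.54. These correlations are a description of 12 or 11 mice and were not tested.

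**Figure D5:**
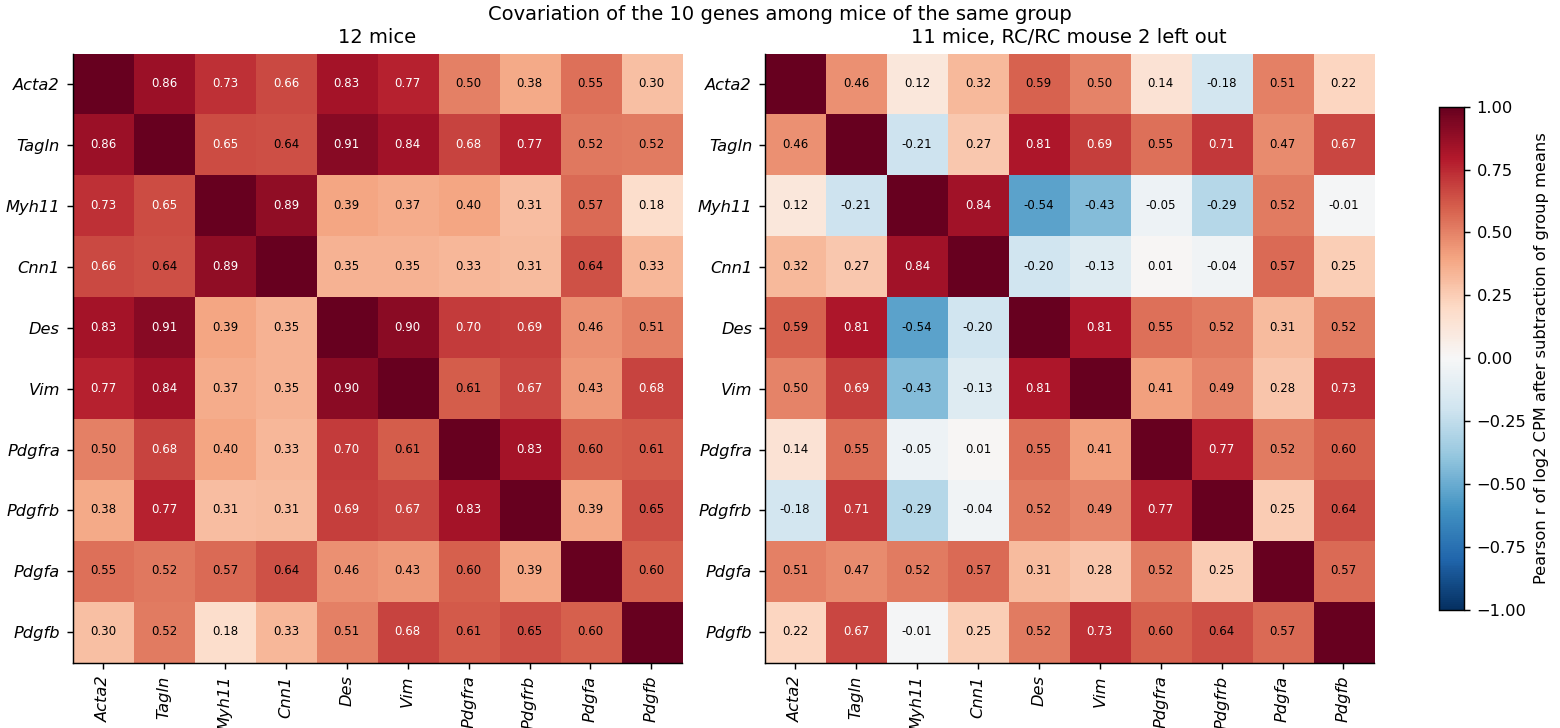
Pearson r of log2 CPM between each pair of the 10 genes (both axes) after subtraction of group means, over 12 mice (left) and over 11 mice without RC/RC mouse 2 (right), with color running from -1 to 1. Without that mouse Myh11 and Cnn1 (0.84) separate from Tagln, Des and Vim, and Pdgfra and Pdgfrb keep 0.77.

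The genes most like 4 of the members over all 12 mice were taken from 14149 other genes with a mean of at least 1 CPM. For Acta2 they were Cd151 (r = 0.97), a tetraspanin gene, Tpm2 (0.96) and Unc5a (0.96), with 0.89, 0.94 and 0.89 after subtraction of group means and 0.67, 0.76 and 0.63 when RC/RC mouse 2 was also left out. For Pdgfra they were Hgf, the hepatocyte growth factor gene, Nrp2 and Map4k4, all at 0.97. For Pdgfrb they were Gucy1a1 (listed as Gucy1a3), Tnfsf13b and Col5a1, all at 0.98. Each of these 6 kept at least 0.94 after subtraction of group means, and at least 0.92 without RC/RC mouse 2. The genes nearest to Myh11 were Fancf (0.89), Car3 (0.86) and Acaca (0.84). Car3, which is abundant in fat, averaged 228 CPM in RC/RC against 27.9 in WT and 23.5 in RC/RC:Casp1KO. The RC/RC mean of Car3 includes RC/RC mouse 2. Without RC/RC mouse 2 the within-group r with Myh11 was 0.89 for Fancf, 0.68 for Car3 and 0.52 for Acaca.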

How the data were processed

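The deposited table holds raw counts, whole-number reads per gene, for 12 kidney libraries. Per the labels, the authors' processing notes name CASAVA 1.8, STAR and the mm10 genome. The counting program, its annotation and whether strand was used are not given in the sources used here, so antisense reads cannot be told apart. Column names give the group but neither sex nor replicate number. P-values measure the spread between these mice. Each group holds libraries with mostly Xist and libraries with mostly Ddx3y counts. The main fits have no term for that split, so their spread includes any difference between its sides.

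Genes were filtered with filterByExpr, scaled by TMM and tested with edgeR 4.0.16 (quasi-likelihood, R 4.3.3) on the 8 mice of a comparison. P-values were adjusted over all genes tested (Benjamini-Hochberg), and called means below 0.05. The SE is the log2 fold change over the root of the F statistic. Ratios used counts plus 0.5. Alternatives were DESeq2 1.42.0, limma 3.58.1 on log2(FPKM + 1), other scalings and filters, leaving out each mouse and, added later, the Xist and Ddx3y split.

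None of the 18 pairs of libraries of the same group agreed within sampling noise. The edgeR, DESeq2 and limma fits were checked on counts simulated for RC/RC against WT. That simulation held no Xist and Ddx3y split and no outlying library, and covered neither the other comparisons nor the ratio tests. The 10 genes, lists and tests were chosen with earlier results of these data known. Lists were described by counts, naming at most 4 called genes with the largest change and 2 abundant uncalled ones. Adipoq, Acta1, Ckm, Myh1, Myh4, Pdgfc, Pdgfd, Mrtfa, Mrtfb, Pdlim3, Car3 and the Myl9 sequence were singled out after their values were seen. A count of 0 allows up to 3 reads, 0.121 to 0.166 CPM, by counting error only.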

Additional observations from a re-analysis of the deposited data

Results flagged for a closer look

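In 87 groups of 4 mice examined, 4 had a highest mouse whose gap to the next, over the whole range of the group, exceeded Dixon's critical value. Chance gives about 1 in 20 such groups. RC/RC mouse 2 had 84.0 CPM of Myh11, where the other RC/RC mice had 23.9 to 32.4. The same mouse had 869 CPM of summed adipocyte markers, and the part of one value in the other was not tested. WT mouse 3 had 35.1 CPM of summed urothelial markers, just past the limit. WT mouse 1 had 2.06 CPM of Casp1, where the other WT mice had 1.29 to 1.41.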

How the results depend on the processing

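No paired analysis was possible because the count columns carry no replicate numbers. Of the 10 genes, 7 were called in RC/RC against WT and 7 or 8 under the alternatives, but 4 to 8 with 1 mouse left out, with 4 without WT mouse 2 or WT mouse 4. In RC/RC:Casp1KO against RC/RC the 4 calls became 8 with DESeq2, 3 with limma and 1 to 6 with 1 mouse left out, with 2 without RC/RC mouse 3, RC/RC:Casp1KO mouse 1 or mouse 3 and 1 without RC/RC:Casp1KO mouse 2, and RC/RC:Casp1KO against WT had 0 throughout. Genes called in the whole table (1971, 1797 and 311) became 3027, 3172 and 1387 with DESeq2. Library size alone gave 998 and limma 1052 in the second comparison, and a minimum of 10 counts in every mouse gave 167 in the third. The Xist and Ddx3y split gave 2784, 2640 and 1257 in the 3 comparisons. With 1 mouse left out, they ranged from 1162 to 2440, 438 to 2789 and 108 to 547. Signs turned in values that were not called: Cnn1 in RC/RC:Casp1KO against WT was 0.021 by library size alone and 0.060 in limma, and -0.33 to 0.51 with 1 mouse left out. With 1 mouse left out Myh11 ranged from -0.42 to 0.41 in RC/RC against WT and from -0.69 to 0.11 in RC/RC:Casp1KO against RC/RC, and Pkd1 from -0.078 to 0.16 in RC/RC against WT. The log2 ratio differences then ranged from -0.26 to 0.068 for Acta2/Myh11 in RC/RC:Casp1KO against WT, from -0.10 to 0.091, -0.041 to 0.10 and -0.063 to 0.13 for Pdgfra/Pdgfrb in the 3 comparisons, and from -0.0051 to 0.21 for Pdgfa/Pdgfb in RC/RC:Casp1KO against RC/RC. Library size alone moved the median of all genes by 0.13 in the third comparison. The causes were not tested. Fits that left out 1 mouse had 3 against 4, and depth limits low genes such as Cnn1, Pdgfrl and Sync most.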
